A study of Mus musculus with 64 samples.

Results

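The insulin-like growth factor (IGF) system is described here by 8 genes, which 20 of the 22626 probe sets on the array measure: the ligands Igf1 and Igf2, the receptor Igf1r and the binding proteins Igfbp2, Igfbp3, Igfbp4, Igfbp5 and Igfbp7. The members were chosen by symbol, and every probe set annotated to one of them was read. Of the 20 probe sets, 19 passed the filter on low values, and all 8 genes were among the 9352 tested. RNA of CBA/J mouse embryos was measured on 64 arrays, 1 per pool of dissected tissues, in 32 groups of 2 pools from different litters. Inner ear epithelium made up 29 groups: the otic placode at E9, the otic vesicle at E9.5 and E10, the cochlea over E10.5 to E15, the vestibular organ over E10.5 to E12, and the saccule and the utricle with the 3 ampullae over E12.5 to E15. Non-inner ear tissue, which surrounds that epithelium, made up 3 groups: E9, a pool of E9.5 to E10.5 and a pool of E11 to E15. All groups were untreated animals of 1 strain. The later non-inner ear pools mix stages, so each inner ear stage was set against the pool that spans it.

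IGF1 and IGF2 are secreted proteins related to insulin, and both signal through the receptor tyrosine kinase IGF1R to the PI3K-AKT and MAPK cascades. Most circulating and tissue IGF is held by binding proteins, which can keep it from the receptor or deliver it locally, and which proteases such as HTRA1 can cleave. In the mouse and in people, loss of Igf1 impairs development of the cochlea and hearing, and Igf2 is an imprinted growth gene expressed from the paternal copy.

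The starts of 5 genes are shown first, so that the letters before Igfbp2, Igfbp3 and Igfbp4, which were lower in the cochlea than in the utricle with ampullae at E12.5 to E15, can be read beside those of Igf1 and Igfbp5. Sequences are from RefSeq on GRCm38.p6, given 5′ to 3′ on the strand of the gene, from 40 to 11 bases before an annotated start, where a TATA box usually lies. Capitals mark TATAAA or TATATA, searched on both strands.
Igf1, chr10:87861071-87861100, plus strand: acttgaatcactattctggatagccgagat
Igfbp2, chr1:72824440-72824469, plus strand: ggggggcggggagaagcaggctttttagga
Igfbp3, chr11:7213934-7213963, minus strand: ccccggcttcTATATAtcggcctgcgcgcc
Igfbp4, chr11:99041204-99041233, plus strand: ccagggggccggTATAAAgtcccgggagcc
Igfbp5, chr1:72874876-72874905, minus strand: gcctgctcgaccagagcccgcagtctcttt
The match begins 30 bases before the start of Igfbp3 and 28 bases before that of Igfbp4. Among 32851 RefSeq gene starts, 1.02 percent held TATATA and 2.66 percent held TATAAA in this window of 30 bases. Igfbp2 held neither, and the 150 bases before its start are shown because they held GGGCGG, the core of a GC box, 3 times (capitals), which 5.57 percent of the gene starts matched or exceeded on either strand.
Igfbp2, chr1:72824330-72824479, plus strand: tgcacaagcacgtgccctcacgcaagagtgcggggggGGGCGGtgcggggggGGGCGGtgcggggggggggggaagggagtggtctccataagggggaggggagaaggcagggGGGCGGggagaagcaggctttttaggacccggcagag
These matches are descriptions of letters in the windows. Igfbp2 and Igfbp5 are next to each other on chromosome 1 in the RefSeq annotation.

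Levels are log2(signal + 16) after quantile normalization, and a difference of 1 is a doubling of signal plus that constant. To be called, a gene needed an adjusted p under 0.05 (limma, Benjamini-Hochberg) together with a difference of 1 log2 or more. The replicate pools correlated at 0.9473 to 0.9914 across probe sets, array medians were 64.7 to 107.6 signal units, and 5.43 to 12.04 percent of probe sets per array lay at the deposited floor of 10. With 2 arrays per group, precision at any 1 stage is limited. The p-values use the spread between replicate pools of separate litters, estimated for each gene over all 32 groups together. The number of tissues per pool was 6 to 17 where the labels give one per array. The dissection was checked on marker lists. In the 3 age windows, 10, 11 and 11 of 11 epithelial genes were higher in inner ear than in non-inner ear tissue. Over all genes these shares were 2.71, 3.72 and 8.47 percent. Of 14 mesenchyme genes, 7, 10 and 13 were lower, against 3.23, 4.68 and 7.14 percent of all genes. Mesenchyme genes were not absent from the inner ear, since their summed signal was 975 to 9243 in the cochlea, with a median of 4574, against 19489 and 17891 in the non-inner ear pools of E11 to E15. The cartilage and red blood cell lists overlapped between tissues. Summed signal of 7 cartilage genes was 4789 to 18588 in the utricle with ampullae, against 15424 and 17038 in those pools. For 5 red blood cell genes it was 627 to 10102 in the cochlea, against 8922 and 11715 in those pools. In tissue pools, fewer cells of a type and less RNA per cell cannot be told apart.

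**Figure D1:**
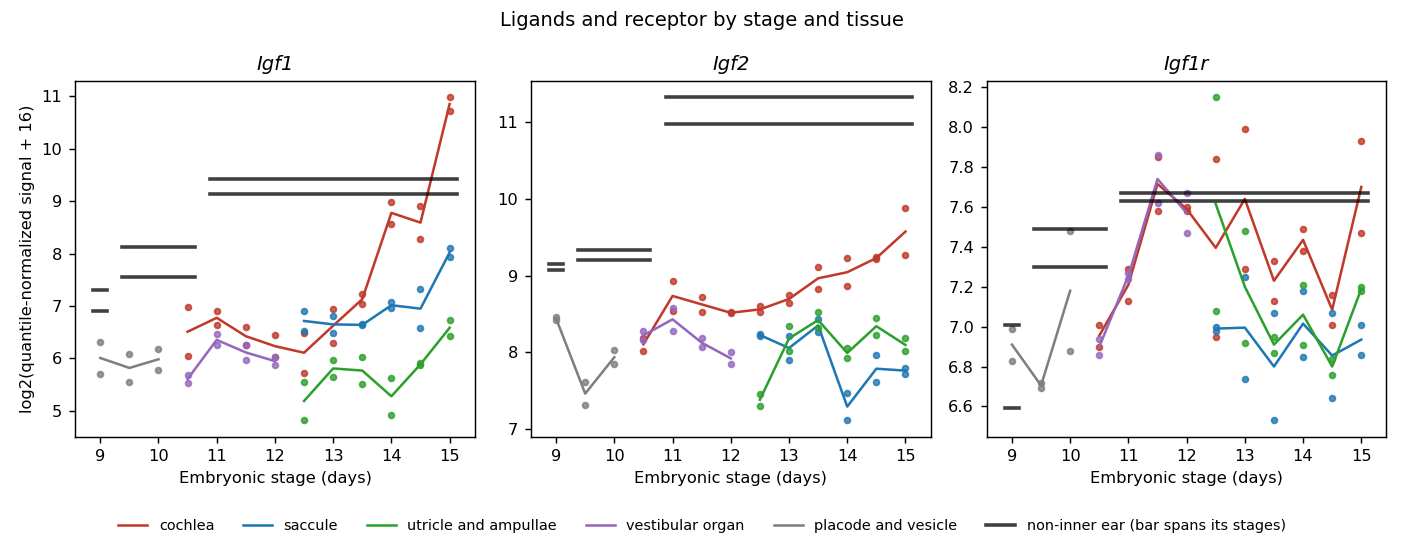
Levels of Igf1, Igf2 and Igf1r, as log2(quantile-normalized signal + 16), against embryonic stage in days. Points are single arrays, lines join the means of 2 arrays, and black bars are the 2 non-inner ear arrays drawn across the stages in their pool. Igf1 in the cochlea passes the non-inner ear bars only at E15. Igf2 in inner ear tissue, on the probe set drawn, stays below them at all stages.

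The first question was how inner ear epithelium differed from the tissue around it. Both ligands and Igfbp4 were lower in the inner ear from E9.5 on. At E9, 1 of 8 members was called, Igf1, where 5.93 percent of all genes tested were called, 2.71 percent higher and 3.23 percent lower. At E9.5 to E10.5, 3 members were lower (Igf1, Igf2 and Igfbp4), where 8.4 percent of all genes were called, 3.72 percent higher and 4.68 percent lower. Those 3 were also lower at E11 to E15, where 15.6 percent were called, 8.47 percent higher and 7.14 percent lower. The median change of the 8 members was -0.29, -0.27 and -0.43 log2 in the 3 windows, and that of all genes was -0.05, 0.01 and -0.01 log2.

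Igf1 had levels of 5.7 and 6.32 log2 in the 2 placode arrays at E9, against 6.9 and 7.31 log2 in the 2 non-inner ear arrays. The arrays did not overlap, and the change was -1.09 log2 (SE 0.31, limma adjusted p = 0.00926). Without placode replicate 1 it was -0.78 log2 (adjusted p = 0.178), and without non-inner ear replicate 1 it was -0.89 log2 (adjusted p = 0.119), so this call rests on single arrays. Over E9.5 to E10.5, 8 arrays of inner ear ran from 5.54 to 6.98 log2 with a median of 5.91 log2, all below the non-inner ear arrays at 7.56 and 8.13 log2. That difference was -1.89 log2 (SE 0.25, adjusted p = 9.37e-08). At E11 to E15 the 48 inner ear arrays ran from 4.82 to 10.98 log2 with a median of 6.51 log2, against 9.13 and 9.42 log2 in non-inner ear tissue. Here 46 of the 48 arrays lay below both non-inner ear arrays, and the 2 above them were the cochlea at E15. The mean difference over the stages was -2.56 log2 (SE 0.22, adjusted p = 1.79e-12).

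Igf2, the fetal growth ligand, was lower too. All 48 inner ear arrays of E11 to E15 lay below the non-inner ear arrays, at 7.11 to 9.88 log2 with a median of 8.29 log2, against 10.98 and 11.33 log2. The change was -2.80 log2 (SE 0.13, adjusted p = 1.12e-20). Over E9.5 to E10.5, 8 arrays of inner ear had 7.31 to 8.28 log2, with a median of 8.03 log2, against 9.2 and 9.33 log2 in non-inner ear tissue, a change of -1.41 log2 (SE 0.14, adjusted p = 2.21e-10). At E9 the change was -0.67 log2 (SE 0.18, adjusted p = 0.00557), under the size needed for a call. The second Igf2 probe set went the other way at E9. It had 6 and 6.25 log2 in placodes, against 5.77 and 5.47 log2 in non-inner ear tissue. At E11 to E15 the second probe set gave -2.00 log2 (SE 0.16).

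Igfbp4, which mostly restrains IGF action and is cut by pregnancy-associated plasma protein A, was also below the non-inner ear level on every inner ear array from E9.5 on. At E11 to E15 its 48 inner ear arrays ran from 7.13 to 9.61 log2, with a median of 8.52 log2, against 10.29 and 10.67 log2 in non-inner ear tissue. The changes were -1.45 log2 (SE 0.25, adjusted p = 1.79e-05) at E9.5 to E10.5 and -1.94 log2 (SE 0.23, adjusted p = 3.21e-09) at E11 to E15. Of its 6 probe sets, 4 gave -1.94 to -1.65 log2 in the later window, while the other 2 gave -0.59 and -0.18 log2. With the mean of its probe sets, the change at E9.5 to E10.5 was -0.85 log2 (SE 0.16, adjusted p = 3.65e-05), under the size for a call.

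The other 5 members were not called in any of these windows. Igfbp2 had a change of -0.49 log2 at E11 to E15 (SE 0.17, adjusted p = 0.0145), and Igfbp3 one of 0.41 log2 (SE 0.22, adjusted p = 0.103). Arrays lay on both sides, since 24 of 48 inner ear arrays had more Igfbp3 signal than both non-inner ear arrays and 14 had less than both. Igf1r, Igfbp5 and Igfbp7 differed by -0.37, -0.13 and -0.15 log2. Beside these changes, 6 of 8 endothelial genes, 10 of 12 neuronal genes and 4 of 6 macrophage genes were also lower in inner ear tissue at E11 to E15. The part of such cells in the ligand and Igfbp4 values was not tested.

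Other genes of the pathway were read from lists made by function. Among 12 tested imprinted growth genes, 4 were lower in the inner ear at E11 to E15 and none was higher: Plagl1, an imprinted zinc finger factor (-3.80 log2, SE 0.27), Cdkn1c, an inhibitor of cyclin-dependent kinases (-1.98 log2, SE 0.15), Igf2r, the receptor that clears IGF2 (-1.26 log2, SE 0.19), and Peg3 (-1.15 log2, SE 0.18). Among 5 tested relatives of the binding proteins, 2 were lower, Htra1 (-4.67 log2, SE 0.25) and Kazald1 (-1.89 log2, SE 0.27). Of 20 tested adaptors and PI3K-AKT-mTOR genes, Irs4, a docking protein below the receptors, was higher (1.58 log2, SE 0.25) and Foxo1, a transcription factor that AKT restrains, was lower (-1.09 log2, SE 0.14). The other 18 were not called. Median changes were -0.16, -0.22 and -0.15 log2 for these 3 lists, against -0.01 log2 for all genes, of which 8.47 percent were higher and 7.14 percent lower. The adaptor list, with 1 of 20 in each direction, was not above those shares.

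Non-inner ear tissue also differed between stages, where age and the time in dispase (8 to 10 minutes at E9, 20 to 25 minutes from E11) cannot be told apart. At E11 to E15, against E9, 2 of 8 members were higher, where 19.7 percent of all genes tested were called, 10.2 percent higher and 9.51 percent lower. Igf1 had 9.42 and 9.13 log2 in the later pools, against 7.31 and 6.9 log2 at E9, a change of 2.17 log2 (SE 0.31, adjusted p = 2.9e-07). Igf2 had 11.33 and 10.98 log2, against 9.08 and 9.15 log2 at E9, a change of 2.04 log2 (SE 0.18, adjusted p = 4.71e-12). Summed mesenchyme marker signal was 19489 and 17891 in the later pools, against 4195 and 3934 at E9, and its part in the change was not tested. Igf1r had 7.67 and 7.63 log2 in the later pools, against 7.01 and 6.59 log2 at E9, a difference of 0.85 log2 (SE 0.26, adjusted p = 0.00737). The difference was 1.06 log2, above the size for a call, when non-inner ear E9 replicate 1 was left out. The second Igf1r probe set had 6.31 and 6.15 log2 in the later pools, against 6.33 and 5.97 log2 at E9. Those arrays overlapped, so the 2 probe sets did not show the same change.

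Within the inner ear, the earliest stages showed no called member. The vesicle at E10 was set against the placode at E9, where limma called 0 of 8 members and 5.29 percent of all genes, 3.73 percent higher and 1.56 percent lower. At an unadjusted p under 0.05, 2 members (Igf2 and Igfbp4) and 34.7 percent of all genes passed. Igf2 had 8.03 and 7.84 log2 in vesicles at E10, against 8.46 and 8.42 log2 in placodes, a difference of -0.51 log2 (SE 0.18, adjusted p = 0.0339) between arrays that did not overlap. Its level at E9.5, 7.61 and 7.31 log2, was below both. Igf1 had 5.55 to 6.32 log2 on the arrays of E9 to E10.

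In the cochlea the question was how the system changed as the duct grew. Over E10.5 to E15, Igf1 and Igf2 rose and Igfbp2 fell, 3 of 8 members, where 14.9 percent of all genes were called, 8.06 percent risen and 6.89 percent fallen. The trend is the least-squares slope over the stage means multiplied by the days spanned. The median change was 0.32 log2 for the members and 0.06 log2 for all genes.

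Igf1 rose by 3.64 log2 (SE 0.22, adjusted p = 2.94e-17), and it did so late. Its 14 arrays of E10.5 to E13.5 lay between 5.73 and 7.23 log2. At E14 the 2 arrays had 8.56 and 8.99 log2, at E14.5 they had 8.9 and 8.28 log2, and at E15 they had 10.98 and 10.72 log2. The arrays of E14 and E14.5 overlapped each other, while those of E15 lay clear of all other inner ear and non-inner ear arrays. Without the E15 arrays the rise was 2.15 log2 (SE 0.23, adjusted p = 1.63e-09). The other probe sets of Igf1 gave rises of 3.04 log2 (SE 0.19) and 1.97 log2 (SE 0.17). Mesenchyme markers also had their highest summed signal in the cochlea at E15, 8389 and 9243, against 5783 and 5316 at E14.5. The non-inner ear pools of E11 to E15, which mix stages, had 19489 and 17891 for these markers. The part of mesenchyme in the rise was not tested.

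Igf2 rose in the cochlea by 1.10 log2 (SE 0.13, adjusted p = 1.18e-09), more evenly than Igf1. It had 8.19 and 8.02 log2 at E10.5, 8.52 and 8.51 log2 at E12, 8.82 and 9.11 log2 at E13.5, and 9.88 and 9.27 log2 at E15. The arrays of E15 were above all earlier ones, with a spread of 0.61 log2 between them, the widest for this gene in any group. The rise was 0.95 log2 without cochlea E15 replicate 1 and 0.84 log2 without both E15 arrays, under the size for a call.

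Igfbp2, a binding protein abundant in embryonic epithelia, fell by 1.11 log2 over the same stages (SE 0.17, adjusted p = 4.79e-07). Its levels were 8.39 and 8.91 log2 at E10.5, 7.73 and 7.44 log2 at E11, 7.03 and 7.07 log2 at E12, and 6.74 and 6.98 log2 at E15. Most of this lay between E10.5 and E12. Dispase, an enzyme that frees the epithelium, was applied for 8 to 10 minutes at stages up to E10.5 and for 20 to 25 minutes later, so that stage and incubation cannot be told apart across that step. Within the longer incubation, over E11 to E15, the change was -0.51 log2 (SE 0.17, adjusted p = 0.0119) for Igfbp2, 0.89 log2 for Igf2 and 3.85 log2 for Igf1, of which Igf1 alone was called. Leaving out cochlea E10.5 replicate 2 gave -0.99 log2 for Igfbp2.

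Among the remaining members, Igfbp3 had a change of 0.95 log2 (SE 0.21, adjusted p = 0.000191) in the cochlea. Both of its arrays at E10.5 and 1 each at E11.5, E12 and E12.5 lay at the floor, so the lower end is a bound. The E11 arrays stood above their neighbours at 5.85 and 5.6 log2, and without them the change was 1.38 log2 (SE 0.23, adjusted p = 4.82e-06). It had 5.31 and 5.11 log2 at E13.5 and 6.58 and 5.69 log2 at E15. Igfbp5 had a change of 0.45 log2 (SE 0.07, adjusted p = 8.74e-07), and its signal lay between percentiles 98.5 and 100 of every array. Deposited values carry no saturation flag, and how far its differences are compressed was not tested. Igf1r, Igfbp4 and Igfbp7 had changes of 0.20, -0.39 and -0.02 log2.

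Genes around the IGF pathway changed in the cochlea too. Lin28a, which blocks the let-7 microRNAs and promotes Igf2 translation in muscle cells, fell by 5.96 log2 (SE 0.19), and Igf2bp1, which binds Igf2 mRNA, fell by 1.31 log2 (SE 0.16), 2 of the 3 genes tested in that list. Of 5 relatives of the binding proteins, 2 rose: Kazald1 by 2.81 log2 (SE 0.26) and Crim1, a membrane protein with an IGF-binding motif, by 1.46 log2 (SE 0.16). Ins2, which encodes insulin, rose by 1.42 log2 (SE 0.20), the single call among 4 tested ligands and other receptors. Foxo1 and Grb14, an adaptor that dampens insulin signalling, rose by 1.32 log2 (SE 0.14) and 1.08 log2 (SE 0.15), 2 of 20 adaptors and PI3K-AKT-mTOR genes, and 0 of those 20 fell. The imprinted genes Mest and Sgce fell, with changes of -1.44 and -1.02 log2, 2 of 12. Over all genes 8.06 percent rose and 6.89 percent fell, so the count for the adaptors was near the share of all genes.

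**Figure D2:**
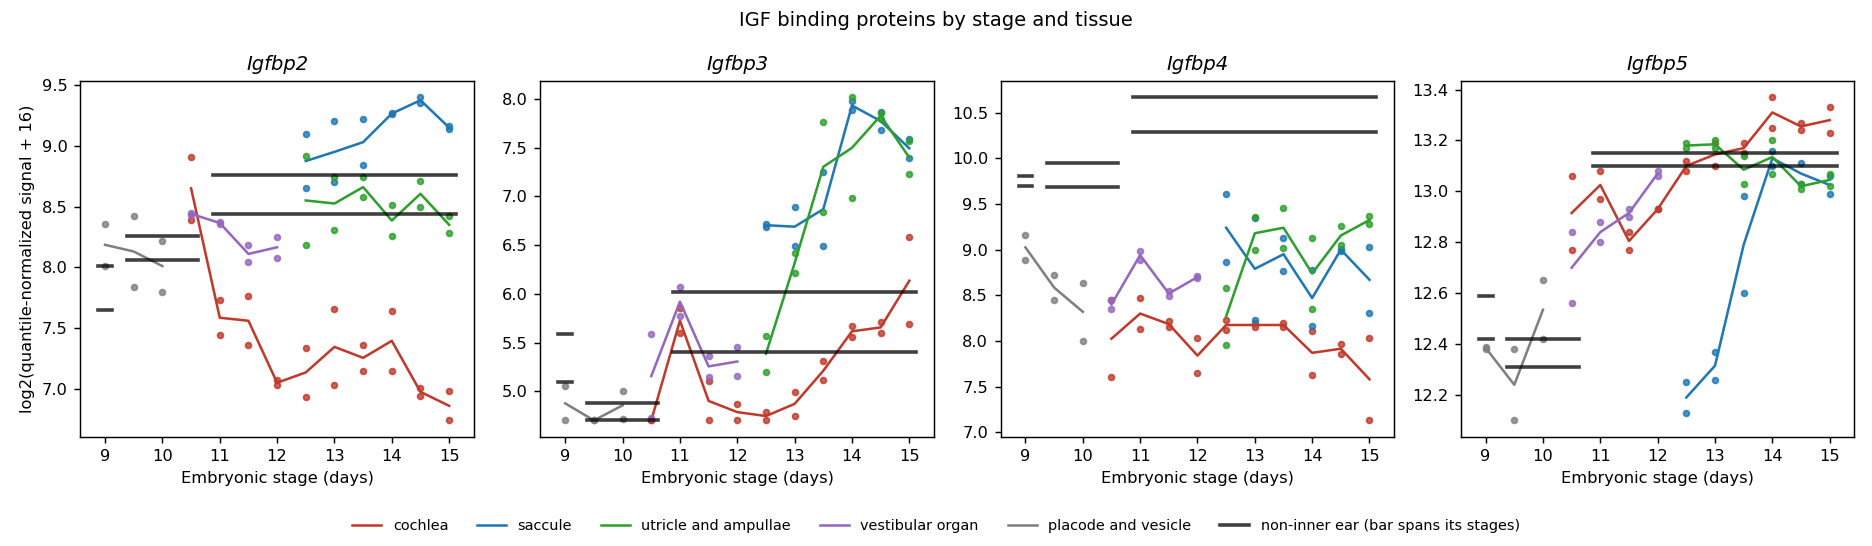
Levels of Igfbp2, Igfbp3, Igfbp4 and Igfbp5, as log2(quantile-normalized signal + 16), against embryonic stage in days, with points for single arrays, lines for means of 2 arrays and black bars for the 2 non-inner ear arrays across their stages. The cochlea lies below the saccule and the utricle with ampullae for Igfbp2 and Igfbp3 at all 6 shared stages. Over E12.5 to E15, Igfbp3 climbs in both vestibular tissues and in the cochlea.

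The later vestibular tissues were followed over a shorter span. Over E12.5 to E15, Igfbp3 rose in the utricle with ampullae, 1 of 8 members, where 7.53 percent of all genes were called, 5.04 percent risen and 2.49 percent fallen. In the saccule Igf1 and Igfbp3 rose, 2 of 8 members, where 7.08 percent were called, 4.59 percent risen and 2.49 percent fallen. The median change of the members was 0.22 log2 in the utricle with ampullae and 0.21 log2 in the saccule, against 0 and -0.02 log2 for all genes. In the cochlea over that span Igf1 and Igfbp3 were called too, at 4.46 and 1.38 log2.

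Igfbp3, the main carrier of IGF in serum, had 5.2 and 5.57 log2 in the utricle with ampullae at E12.5 and 6.42 and 6.21 log2 at E13. It then had 7.77 and 6.84 log2 at E13.5, 6.98 and 8.02 log2 at E14, 7.8 and 7.86 log2 at E14.5, and 7.57 and 7.23 log2 at E15. The arrays of E12.5 were the lowest and those of E13.5 to E15 overlapped. The rise was 2.11 log2 (SE 0.25, adjusted p = 2.06e-08). In the saccule it had 6.69 and 6.72 log2 at E12.5, 7.89 and 7.98 log2 at E14, and 7.4 and 7.59 log2 at E15, a rise of 1.18 log2 (SE 0.25, adjusted p = 0.000353). Hair cell genes moved beside it: 7 of 8 rose in the utricle with ampullae and 8 of 8 in the saccule. Their summed signal was 568 and 670 in the utricle with ampullae at E12.5 and 6892 and 5283 at E15, while in the saccule it was 1363 and 1039 at E12.5 and 8834 and 11126 at E15. The part of hair cells in the Igfbp3 values was not tested.

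Igf1 rose in the saccule by 1.11 log2 (SE 0.26, adjusted p = 0.00106). Its arrays had 6.91 and 6.52 log2 at E12.5, 7.32 and 6.58 log2 at E14.5, and 8.1 and 7.94 log2 at E15, so only the E15 arrays stood above the earlier ones. Without the E15 arrays the change was 0.33 log2 (adjusted p = 0.472). It was 0.97 log2 without saccule E12.5 replicate 2 and 0.95 log2 without saccule E14.5 replicate 1. In the utricle with ampullae the change was 0.96 log2 (SE 0.26, adjusted p = 0.00446), with 5.56 and 4.82 log2 at E12.5 and 6.43 and 6.74 log2 at E15. It passed 1 log2 when any of 4 single arrays was left out, at 1.22, 1.03, 1.01 and 1.07 log2 without replicate 1 of E12.5, E13, E14 and E15.

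Igf2 did not follow Igf1 in the saccule. It had 8.21 and 8.24 log2 at E12.5, 7.47 and 7.11 log2 at E14 and 7.72 and 7.8 log2 at E15, a change of -0.60 log2 (SE 0.15, adjusted p = 0.00216). Igfbp5 in the saccule had 12.25 and 12.13 log2 at E12.5, 12.26 and 12.37 log2 at E13, 12.98 and 12.6 log2 at E13.5, 13.16 and 13.1 log2 at E14, and 12.99 and 13.06 log2 at E15. The arrays of E12.5 and E13 lay below all later ones. This was a change of 0.97 log2 (SE 0.08, adjusted p = 5.73e-12), just under the size for a call, and it was 1.01 log2 without saccule E12.5 replicate 1. The second probe set of Igfbp5 gave -0.25 log2 (SE 0.19) there, so the 2 probe sets did not show the same trend. They differed in the utricle with ampullae too, where the probe set used for the gene changed by -0.16 log2 (SE 0.08). The second had 9.54 and 8.94 log2 there at E12.5 and 7.83 and 8.06 log2 at E15.

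**Figure D3:**
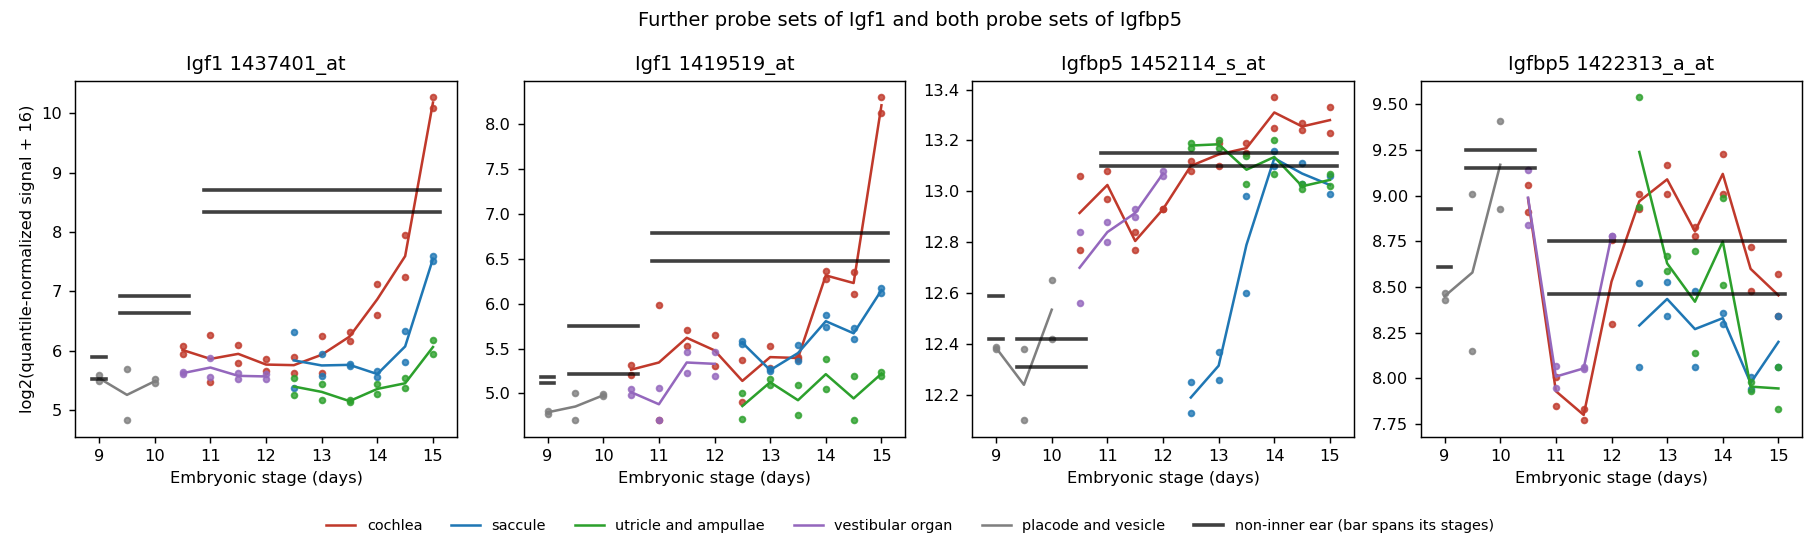
Levels of the other Igf1 probe sets (left panels) and of both Igfbp5 probe sets (right panels, the one used for the gene first), as log2(quantile-normalized signal + 16), against embryonic stage in days, drawn as single arrays, means of 2 arrays and bars for non-inner ear tissue. Both Igf1 panels peak in the cochlea at E15, while the Igfbp5 panels differ in the saccule and in the utricle with ampullae.

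Over the shorter span of E10.5 to E12, limma called 0 of 8 members in the vestibular organ and 4.02 percent of all genes, 2.23 percent risen and 1.79 percent fallen. At an unadjusted p under 0.05 there were 4 members and 30.2 percent of all genes. Igf1r had the largest change among them, 0.75 log2 (SE 0.25, adjusted p = 0.0335), with 6.94 and 6.86 log2 at E10.5 and 7.67 and 7.47 log2 at E12. Its second probe set gave -0.06 log2 (SE 0.25) over the same stages. Of these stages only E10.5 had the shorter time in dispase, so stage and incubation cannot be told apart across that step.

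Kazald1 rose in both later vestibular tissues, by 2.93 log2 (SE 0.31) in the utricle with ampullae and by 3.56 log2 (SE 0.31) in the saccule. Igf2bp1 fell in both, with changes of -1.52 and -2.08 log2, and Lin28a fell by 1.38 log2 (SE 0.23) in the utricle with ampullae. In the saccule Grb14 rose by 2.23 log2 (SE 0.18) and Irs1, the docking protein of the insulin and IGF receptors, by 1.35 log2 (SE 0.23), 2 of 20 adaptors and PI3K-AKT-mTOR genes. Akt1 was the single one of the 20 that rose in the utricle with ampullae (1.28 log2, SE 0.22). These counts are read against the 4.59 percent of all genes that rose in the saccule and the 5.04 percent in the utricle with ampullae, and 1 of 20 is no more than the share of all genes.

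The tissues were then set against each other at shared stages. Over E10.5 to E12, limma called 0 of 8 members between the cochlea and the vestibular organ, where 1.41 percent of all genes were called, 0.535 percent higher and 0.877 percent lower. At an unadjusted p under 0.05 there were 5 members and 34.5 percent of all genes. The 4 members with an adjusted p below 0.05 were Igf1 (0.48 log2, SE 0.15), Igf2 (0.32 log2, SE 0.09), Igfbp2 (-0.56 log2, SE 0.12) and Igfbp4 (-0.55 log2, SE 0.16). Igfbp2 in the cochlea lay below the vestibular organ at 3 of 4 stages, with 7.03 and 7.07 log2 against 8.08 and 8.25 log2 at E12, while the tissues overlapped at E10.5.

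At E12.5 to E15 the cochlea stood apart from both vestibular tissues. Against the utricle with ampullae, Igf1 was higher in the cochlea and Igfbp2, Igfbp3 and Igfbp4 were lower, 4 of 8 members, where 3.07 percent of all genes were called, 1.2 percent higher and 1.87 percent lower. Against the saccule, Igf1 and Igf2 were higher in the cochlea and Igfbp2 and Igfbp3 were lower, again 4 of 8 members, where 3.77 percent were called, 1.67 percent higher and 2.11 percent lower. These comparisons share the cochlear arrays and are not independent of each other. The median change of the members, 0.01 and 0.18 log2, was near that of all genes, 0.01 log2 in each.

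Igfbp2 in the cochlea did not overlap with either vestibular tissue, while those overlapped each other. Its 12 cochlear arrays ran from 6.74 to 7.66 log2, against 8.18 to 8.92 log2 with a median of 8.5 log2 in the utricle with ampullae and 8.65 to 9.4 log2 with a median of 9.18 log2 in the saccule. The differences were -1.35 log2 (SE 0.10, adjusted p = 9.95e-15) and -1.95 log2 (SE 0.10, adjusted p = 1.25e-19). For Igfbp3 the cochlea was below both tissues at 6 of 6 stages, with differences of -1.58 log2 (SE 0.12, adjusted p = 6.09e-14) from the utricle with ampullae and -1.87 log2 (SE 0.12, adjusted p = 3.87e-16) from the saccule. Cochlear signal at E12.5 and E13 was at or near the floor, so the sizes depend on the pseudocount. They were -2.07 and -2.44 log2 with a pseudocount of 1, and -0.98 log2, which ended the call, and -1.16 log2 with a pseudocount of 64. Beside this, 5 of 8 hair cell genes were lower in the cochlea than in the utricle with ampullae and 6 of 8 than in the saccule. Their summed signal was 663 to 2290 over all cochlear arrays with a median of 954, against medians of 2553 in the utricle with ampullae and 4136 in the saccule.

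Igf1 in the cochlea was above the utricle with ampullae at 6 of 6 stages, by 2.26 log2 on average (SE 0.13, adjusted p = 3.19e-18). At E12.5 the levels were 6.49 and 5.73 log2 in the cochlea against 5.56 and 4.82 log2 in the utricle with ampullae, and at E15 they were 10.98 and 10.72 log2 against 6.43 and 6.74 log2. Against the saccule, Igf1 in the cochlea was lower on both arrays at 1 stage, E12.5, and higher at 4 of 6, with an average difference of 1.02 log2 (SE 0.13, adjusted p = 1.27e-08). Without the E15 arrays that difference was 0.65 log2, and it lay at 0.95 to 1 log2 without any of 9 single arrays, all below the size for a call. Igf2 was above the saccule at 6 of 6 stages with no overlap of arrays, by 1.10 log2 (SE 0.07, adjusted p = 7.04e-16), and by 0.96 log2 without the E15 arrays. Above the utricle with ampullae it was 0.94 log2 (SE 0.07, adjusted p = 7.09e-14), also at 6 of 6 stages.

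Igfbp4 in the cochlea differed by -1 log2 from the utricle with ampullae (SE 0.13, adjusted p = 4.23e-08) and by -0.87 log2 from the saccule (SE 0.13, adjusted p = 4.66e-07). The first is at the size for a call and lay between -1 and -0.93 log2 without any of 12 single arrays that ended it. Among all alternatives, 15 ended this call, and the difference ran from -1.1 to -0.69 log2. Igf1r, Igfbp5 and Igfbp7 were not called in either comparison. Among pathway genes, Crim1 (-1.61 log2, SE 0.09), Htra1 (-1.77 log2, SE 0.14) and Irs1 (-1.21 log2, SE 0.11) were lower in the cochlea than in the utricle with ampullae. Plagl1 was lower in the cochlea than in the saccule (-1.66 log2, SE 0.15), and Igf2bp1 was higher (1.15 log2, SE 0.09). Mest, an imprinted gene, was lower in the cochlea than in either tissue, at -1.04 log2 against the utricle with ampullae and -2.09 log2 against the saccule (SE 0.08 each). Mesenchyme genes differed less evenly, with 3 higher and 0 lower of 14 in the cochlea than in the utricle with ampullae, and 2 higher and 5 lower than in the saccule.

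Between the 2 vestibular tissues, Igf1 alone was called, 1 of 8 members, where 2.72 percent of all genes were called, 1.2 percent higher and 1.52 percent lower. It was higher in the saccule at 6 of 6 stages, at 6.49 to 8.1 log2 with a median of 6.86 log2, against 4.82 to 6.74 log2 with a median of 5.75 log2 in the utricle with ampullae. The difference was 1.24 log2 (SE 0.13, adjusted p = 1.52e-10). It was under the size for a call with a pseudocount of 64 (0.78 log2) and with the mean of its probe sets (0.83 log2). Igfbp2 differed by 0.60 log2 (SE 0.10, adjusted p = 4.51e-06) and Igfbp5 by -0.35 log2 (SE 0.04, adjusted p = 2.78e-09), both under the size for a call. Crim1 was lower in the saccule (-1.66 log2, SE 0.09), and Grb14, Mest and Plagl1 were higher (1.19, 1.06 and 1.53 log2).

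Whether the trends over E12.5 to E15 differed between tissues was tested directly. Between the cochlea and the utricle with ampullae, 2 of 8 members differed, where 3.86 percent of all genes were called, 1.73 percent higher and 2.13 percent lower. Between the cochlea and the saccule, 2 of 8 differed, where 5.04 percent were called, 1.94 percent higher and 3.1 percent lower. The Igf1 trend was larger in the cochlea by 3.50 log2 than in the utricle with ampullae (SE 0.37, adjusted p = 8.23e-09) and by 3.35 log2 than in the saccule (SE 0.37, adjusted p = 1.61e-08). Without the E15 arrays these were 2.49 and 2.51 log2, both still called. The Igf2 trend was larger in the cochlea than in the saccule by 1.57 log2 (SE 0.21, adjusted p = 1.31e-06). The Igfbp4 trend was smaller in the cochlea than in the utricle with ampullae, by -1.25 log2 (SE 0.38, adjusted p = 0.0322), and leaving out any 1 of 9 arrays ended that call, with adjusted p-values of 0.0533 to 0.221. For Igfbp3 the trend difference was -0.73 log2 (SE 0.36, adjusted p = 0.212) from the utricle with ampullae and 0.21 log2 (SE 0.36, adjusted p = 0.8) from the saccule, neither of them called. Without the E15 arrays the difference from the utricle with ampullae was called, at -1.41 log2 (SE 0.37, adjusted p = 0.0265). Beside these, 6 of 8 hair cell genes had a lower trend in the cochlea than in either tissue.

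**Figure D4:**
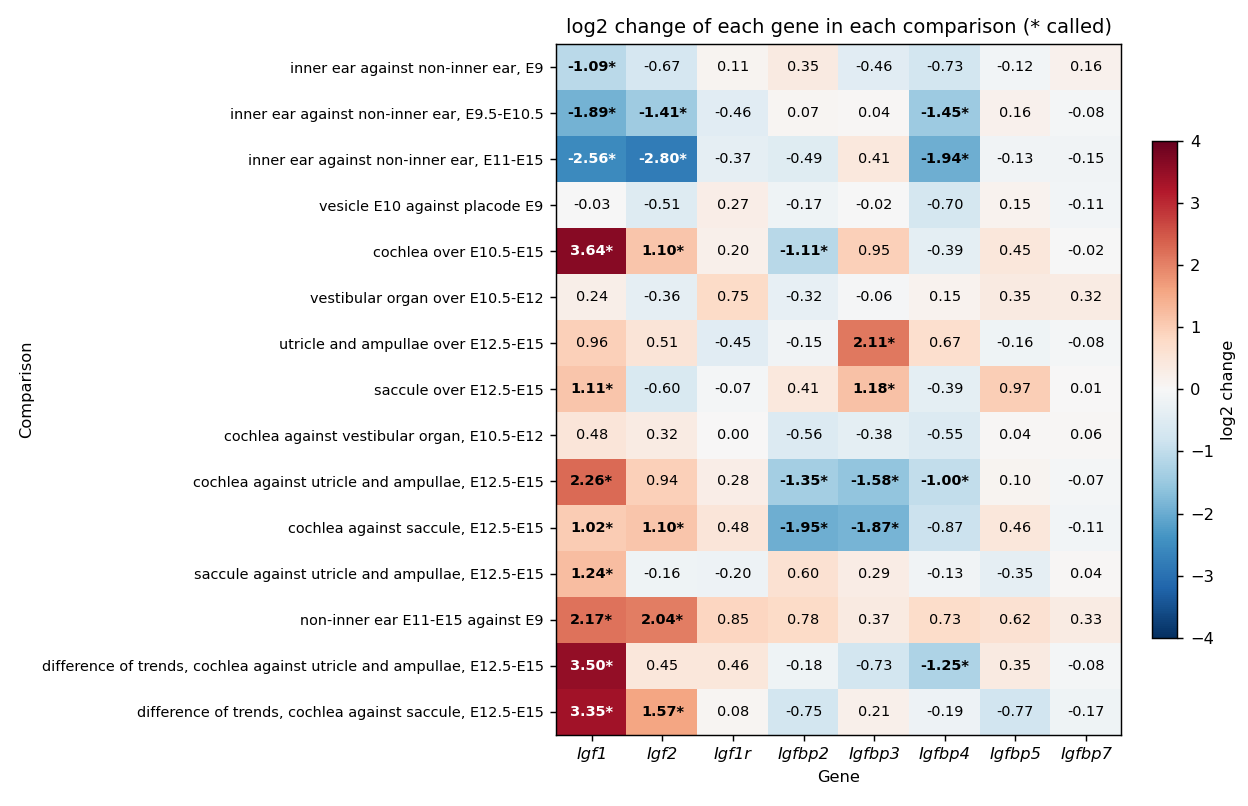
Heat map of the log2 change of 8 genes (columns) in 15 comparisons (rows), coloured from -4 (blue) to 4 (red), with an asterisk where limma adjusted p was below 0.05 and the change at least 1 log2. The highest value is 3.64 for Igf1 over E10.5 to E15 in the cochlea, the lowest is -2.80 for Igf2 in inner ear against non-inner ear tissue at E11 to E15, and Igfbp7 stays within 0.33 of 0.

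Igf1r, the receptor, varied little on the probe set used for the gene. Arrays of the second probe set ran from 5.55 to 7.63 log2, against 6.53 to 8.15 log2 for the first. Group means of the first spanned 1.03 log2, against 5.66 log2 for Igf1 and 3.87 log2 for Igf2. None of the 15 comparisons called it on the full set of arrays. Its replicates disagreed most where a single array was high: 8.15 and 7.08 log2 in the utricle with ampullae at E12.5, 7.84 and 6.95 log2 in the cochlea at E12.5, and 7.99 and 7.29 log2 in the cochlea at E13, each with replicate 1 as the higher. Over the 32 groups, the difference between replicates correlated at 0.81 with that of a probe set for Lor, a cornified envelope gene of skin, and at -0.23 with that of the second Igf1r probe set. The second probe set put Igf1r at 0.63 log2 in inner ear against non-inner ear tissue at E11 to E15 (SE 0.19, adjusted p = 0.0043), against -0.37 log2 (SE 0.19) from the first, so no direction is given for this gene there.

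Igfbp7, a relative that binds IGFs weakly, was the flattest member, with group means between 6.37 and 7.22 log2 and no call in 15 comparisons. The cochlea at E12 was highest and the cochlea at E11 lowest, and the median difference between replicates was 0.1 log2. Of its 3 probe sets, 1 did not pass the filter.

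The order of levels across the 32 groups differed by gene. Igf1 was highest in the cochlea at E15 (10.85 log2), then in non-inner ear tissue of E11 to E15 (9.27 log2) and in the cochlea at E14 and E14.5 (8.77 and 8.59 log2), the last of these overlapping. It was lowest in the utricle with ampullae at E12.5 (5.19 log2). Igf2 was highest in non-inner ear tissue of E11 to E15 (11.15 log2), clear of the cochlea at E15 (9.58 log2), and lowest in the saccule at E14 (7.29 log2). Igfbp4 had its 3 highest levels in the 3 non-inner ear groups, at 10.48, 9.82 and 9.75 log2, of which the last 2 overlapped. Igfbp2 was highest in the saccule at E14.5, E14, E15 and E13.5, and Igfbp3 in the saccule at E14, with the utricle with ampullae at E14.5 next, its 2 arrays just below.

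The genes whose group means ran most like those of each member, by Pearson correlation over the 32 groups, are given as a description, since tissue and stage are shared by all genes. For Igf1 they were Ebf1 (0.904), Cd302 (0.879) and Tm4sf1 (0.847). For Igfbp3 they were Gfi1 (0.94), a hair cell transcription factor, Grp (0.939) and Cyp2s1 (0.929). For Igfbp4 Tfpi came first (0.88), for Igf2 Kcne3 (0.838), for Igfbp2 Armcx3 (0.794), for Igfbp5 Slc1a4 (0.875) and for Igfbp7 Oas1b (0.744). Igf1r was closest to Lor (0.914), the probe set that shared its replicate differences. Among the members themselves the highest correlations were 0.68 for Igf1 with Igf2, 0.62 for Igfbp2 with Igfbp3 and 0.53 for Igfbp2 with Igfbp4.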

How the data were processed

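RNA of dissected tissues was hybridized to Affymetrix arrays, 1 per pool, per the labels' protocols. Each deposited value is a linear intensity for 1 probe set, obtained by the authors using MAS5, as named in the submitters' processing notes, with no version or scaling target stated there. The lowest value is a floor of 10. Trimmed array means varied 1.581-fold, so arrays were quantile normalized, and log2(signal + 16) was taken. Probe sets with 1 gene symbol were kept when at least 2 arrays reached their array's median, and the one with the highest mean represented each of 9352 genes. A limma 3.58.1 model in R 4.3.3 with 32 group coefficients on 64 arrays gave 15 contrasts, with two-sided p-values adjusted by Benjamini-Hochberg over all genes, and the code was tested on simulated data. Inner ear windows average tissues within a stage, then stages. The members and lists were chosen with earlier results of these data known, and likeness was ranked by correlation of group means, the first 3 per member. From the pathway lists, the rule names up to 4 called genes per comparison with the largest change. The other called genes named, and Lor, were chosen after their values were seen.

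The labels do not say whether equal replicate numbers mark the same litters. At E13, E14 and E15, equally numbered pools of cochlea, saccule and utricle with ampullae held equal numbers of tissues. At E12.5, E13.5 and E14.5 some of these numbers differed. Deviations of equally numbered arrays correlated at 0.2 to 0.51 across genes at all 6 stages of the cochlea and the utricle with ampullae. The range was -0.5 to 0.57 for the cochlea and the saccule, -0.34 to 0.5 for the saccule and the utricle with ampullae, and -0.01 to 0.19 for the cochlea and the vestibular organ. The reported fit did not pair arrays, and pairing entered only through the replicate blocks among the alternatives. Alternatives were pseudocounts of 1 and 64, other filters, values as deposited, other probe set rules, array weights, fewer groups, replicate blocks, shorter spans, and leaving out arrays. Fits without the E15 arrays and with blocks inside each stage were added after the data were seen.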

Additional observations from a re-analysis of the deposited data

Results flagged for a closer look

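The trend of 4 member and tissue pairs over E12.5 to E15 differed by the direct test of the difference. In the vestibular tissues alone, Igf1 changed by 0.96 log2 in the utricle with ampullae and by 1.11 log2 in the saccule. The change of Igf2 in the saccule was -0.60 log2, and that of Igfbp4 in the utricle with ampullae was 0.67 log2. For Igf1 the cochlear trend exceeded that of the utricle with ampullae by 3.5 log2 (SE 0.37, limma adjusted p = 8.23e-09) and that of the saccule by 3.35 log2 (SE 0.37, limma adjusted p = 1.61e-08). The cochlear arrays rose late, between E13.5 and E15, beside a summed mesenchyme signal of 8389 and 9243 at E15, and the part of that in the difference was not tested. For Igf2 the cochlear trend exceeded that of the saccule by 1.57 log2 (SE 0.21, limma adjusted p = 1.31e-06), and the second Igf2 probe set gave 0.75 log2 (SE 0.27, limma adjusted p = 0.0693). For Igfbp4 the cochlear trend was below that of the utricle with ampullae by -1.25 log2 (SE 0.38, limma adjusted p = 0.0322). Of its other 5 probe sets, 1 passed the same test, at -1.28 log2 (SE 0.34, limma adjusted p = 0.0144), and the remaining 4 gave -0.88 to -0.30 log2. With 2 arrays per group, no single array could be judged against its group.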

How the results depend on the processing

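Counts of called members, out of 8, depended mainly on genes near 1 log2. With a pseudocount of 64 the count was 0 against 1 for inner ear at E9, 1 against 3 for the cochlear trend, 0 against 2 for the saccule trend, 2 against 4 for the cochlea against the utricle with ampullae and against the saccule, and 0 against 1 for the saccule against the utricle with ampullae; with a pseudocount of 1 the utricle trend had 2 against 1. At E9 the count was 0 also with values as deposited, with the mean of a gene's probe sets and with only the groups of the comparison. The mean of probe sets gave 2 against 4 for the cochlea against the saccule, 0 against 1 for the saccule against the utricle with ampullae and 1 against 2 for the difference of trends from the utricle with ampullae. Without the E14 arrays the utricle trend had 2 members and the cochlea against the saccule 2; without the E15 arrays the cochlea against the saccule also had 2. The cochlear slope over E11 to E15 called 1 against 3, and over E12.5 to E15 Igf1 (4.46 log2) and Igfbp3 (1.38 log2) were called. With each array left out in turn, counts ran from 0 to 1 at E9, 2 to 4 in the cochlear trend, 1 to 2 in the utricle trend, 1 to 3 in the saccule trend, 3 to 4 for the cochlea against the utricle with ampullae and against the saccule, 2 to 3 for non-inner ear tissue and 1 to 2 for the difference of trends from the utricle with ampullae. In the other comparisons they did not move.

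Over the single members, 1398 of 1440 values under alternatives that keep all pairs of arrays or drop a stage kept their call, 33 lost one and 9 gained one. With 1 array left out, 2036 of 2080 kept theirs, 36 lost one and 8 gained one. No called value changed sign, and 91 uncalled values did. A replicate block, over all arrays or within each stage, changed no member call; the Igf1 difference between the cochlea and the utricle with ampullae was 2.26 log2 with the block and without it. Counts over all genes moved by more than 1.5 times in some fits: with a pseudocount of 64 they were 276 against 555 at E9, 458 against 786 at E9.5 to E10.5, 937 against 1460 at E11 to E15, 260 against 495 for E10 against E9, 914 against 1398 in the cochlea, 204 against 376 in the vestibular organ, 426 against 704 in the utricle, 420 against 662 in the saccule, 63 against 132 for the cochlea against the vestibular organ, 188 against 287 against the utricle, 208 against 353 against the saccule, 162 against 254 for the saccule against the utricle and 296 against 471 for the trend difference from the saccule. With a pseudocount of 1 the cochlea against the vestibular organ had 202, and with values as deposited it had 218 and E9 had 987. Testing each probe set alone, which tests more features, gave 530 to 2919 calls in the 8 comparisons that moved. The cochlea over E12.5 to E15 had 589, and without the E15 arrays the saccule had 381 against 662 and the trend differences 156 against 361 and 177 against 471. The cause was not tested. Signals near the floor limit Igfbp3 mainly in the placode, the vesicle and the cochlea up to E13, and the signal of Igfbp5 lies near the top of the arrays.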
